A study of Mus musculus with 28 samples.

Results

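The 4 adenosine receptor genes of the mouse, *Adora1*, *Adora2a*, *Adora2b* and *Adora3*, were read in profiles of histone marks from striatal A2a and D1 nuclei. They were taken as the complete receptor family, by name, out of 55450 annotated genes, of which 21951 are protein-coding. All 4 were found in the annotation, and all lie on autosomes. The question was which of them carried H3K4me3, H3K27me3, both marks or neither in each cell type, at the promoter, along the gene and in the 50 kb on either side.

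Adenosine is released by active neurons and glia or made outside the cell from ATP, and it acts on receptors coupled to G proteins. The A1 and A3 receptors couple to inhibitory G proteins, whereas the A2A and A2B receptors couple to stimulatory ones that raise cAMP. In the striatum the A2A receptor is known as a marker of the medium spiny neurons (MSNs) of the indirect pathway, which also express the dopamine receptor *Drd2*, and the A1 receptor is expressed widely. H3K4me3 marks the promoters of active or poised genes, while H3K27me3 is laid down by Polycomb complexes over silenced genes.

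The study isolated tagged nuclei by INTACT and profiled both marks by CUT&RUN (CnR), in which an antibody directs a nuclease that releases the DNA around the mark. A2a nuclei came from Sun1-sfGFP;A2a-cre mice and D1 nuclei from Sun1-sfGFP;Drd1-cre mice, both on a C57BL/6J background, from males and females of about 8 weeks of age. Both lines carry R26-CAG-LSL-Sun1-sfGFP, so a nucleus was tagged wherever Cre was active, and each CnR used the nuclei of 1 striatum. Of the 28 samples, 8 were read here through 4 lists, 1 list per mark and cell type, each of them pooling 2 replicates. The H3K4me3 antibody was that of Abcam and the H3K27me3 antibody that of Active Motif. The Cre of the A2a line is named for the gene that encodes the A2A receptor, so *Adora2a* is itself the gene that defines the A2a nuclei. Because the replicates were pooled, no list gives a spread between mice, no comparison below has a test across mice, and every interval covers counting error only.

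The A2a and D1 lists held 22551 and 20080 H3K4me3 peaks. The H3K27me3 lists held 60191 and 45760 islands, with 22091634 reads over 301.0 Mb in A2a and 7878685 reads over 184.1 Mb in D1. Library depths are not known from the lists, so read counts are not comparable between cell types without a scaling. The D1 H3K27me3 samples have a source name that reads A2a, against a title and a cell type that read D1, and were taken as D1. In that D1 list the promoter islands at 5 of 5 D1 neuron markers (*Drd1*, *Pdyn*, *Tac1*, *Isl1*, *Eya1*) were shorter than in A2a, for example 1.80 against 16.8 kb at *Drd1*. At 4 of 4 other A2a neuron markers (*Drd2*, *Penk*, *Gpr6*, *Sp9*) the order was the other way, for example 23.8 kb in D1 against 3.40 kb in A2a at *Penk*, so these markers followed the titles. The markers were chosen with earlier results of these data known, so this is no independent check of the titles. The A2a H3K4me3 list had a promoter peak at *Xist* and at 0 of 4 genes of the Y chromosome. The D1 H3K4me3 list had none at *Xist* and peaks at 4 of 4. The sex of the mice and the cell type therefore cannot be told apart in the H3K4me3 lists. None of these genes had a promoter island in either H3K27me3 list, so the sex of those mice could not be read and may differ too.

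The promoter was taken as 2 kb upstream to 1 kb downstream of the annotated 5′ end (TSS), and a mark was called where a listed peak or island overlapped it. By this rule a promoter H3K4me3 peak was present at 3 of the 4 receptor genes in A2a, where 58.2% of protein-coding genes had one, and at 2 of 4 in D1, where 55.8% had one. A promoter H3K27me3 island was present at 1 of 4 in A2a, with a background of 21.6%, and at 2 of 4 in D1, with a background of 15.3%. The promoter state differed between the cell types at 2 of the 4, *Adora2a* and *Adora2b*, against 10.8% of all protein-coding genes. The marks were profiled in separate samples, so both marks means that a peak and an island of that cell type overlap the same window. Whether the marks lay on the same nucleosome or in the same nuclei cannot be told from the lists. The 4 genes had 4 different pairs of states. *Adora1* had H3K4me3 only in both lists, *Adora2a* had H3K4me3 only in A2a and both marks in D1, *Adora2b* had both marks in A2a and H3K27me3 only in D1, and *Adora3* had neither mark in either list.

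The sequence just upstream of the start is shown because CpG-rich promoters are, as background, those at which H3K4me3 is usually found. The RefSeq promoter table (GRCm38.p6) matched 3 of the 4 genes, *Adora1*, *Adora2b* and *Adora3*. The 250 bases before the RefSeq start are given 5′ to 3′ on the strand of the gene, with each CG dinucleotide in capitals, at chr1:134235458-134235707 (minus strand), chr11:62248734-62248983 (plus strand) and chr3:105904171-105904420 (plus strand).
Adora1: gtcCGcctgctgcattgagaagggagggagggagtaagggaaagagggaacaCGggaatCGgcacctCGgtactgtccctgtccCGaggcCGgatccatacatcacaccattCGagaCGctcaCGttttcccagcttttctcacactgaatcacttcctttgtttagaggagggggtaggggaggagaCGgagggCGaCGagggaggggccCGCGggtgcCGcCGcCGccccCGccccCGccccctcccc
Adora2b: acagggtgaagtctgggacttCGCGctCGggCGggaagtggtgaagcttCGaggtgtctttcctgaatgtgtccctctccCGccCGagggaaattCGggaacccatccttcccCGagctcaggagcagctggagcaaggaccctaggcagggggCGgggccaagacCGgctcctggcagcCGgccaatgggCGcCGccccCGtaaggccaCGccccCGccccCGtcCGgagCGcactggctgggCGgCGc
Adora3: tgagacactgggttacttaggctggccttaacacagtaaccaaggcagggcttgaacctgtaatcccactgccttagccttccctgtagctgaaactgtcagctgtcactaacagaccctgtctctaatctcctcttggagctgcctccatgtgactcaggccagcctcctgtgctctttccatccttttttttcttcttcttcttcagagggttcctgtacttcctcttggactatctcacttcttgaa

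These windows held 19 CG dinucleotides at *Adora1*, 22 at *Adora2b* and 0 at *Adora3*, where the median of 32851 RefSeq windows of that length was 6. The motif GGGCGG, searched on both strands, occurred 3 times at *Adora1*, 6 times at *Adora2b* and 0 times at *Adora3*, and 32.7% of all windows held at least 1. The letters TATAAA were in the last 50 bases of none of the 3, and of 2.63% of all windows. RefSeq gives *Adora1* a further start downstream, whose window overlaps an exon and held 18 CG dinucleotides. The A2a and the D1 H3K4me3 peaks both covered all 250 bases shown for *Adora1*. At *Adora2b* the A2a H3K4me3 peak covered 248 of the 250 bases and the H3K27me3 islands of both lists covered all of them. At *Adora3* the window lay within an A2a H3K27me3 island and outside every D1 island. The RefSeq start of *Adora3* lies 33.6 kb downstream of the annotated 5′ end at which its promoter state was called above.

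Among 5796 protein-coding genes with 16 or more CG dinucleotides in this window, 91.5% had a promoter H3K4me3 peak in A2a and 89.8% in D1. *Adora1* followed that majority in both lists, and *Adora2b* did so in A2a and not in D1. Among 6104 genes with 0 to 5 CG dinucleotides, the class of *Adora3* at its RefSeq start, the shares were 18.1% and 16.1%. Promoter H3K27me3 islands did not rise with CG content in this way. Their shares were 16.2% in A2a and 12.2% in D1 at 16 or more CG dinucleotides, the class of *Adora2b*. They were 25.2% and 18.7% at 6 to 15, and 23.3% and 14.4% at 0 to 5.

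**Figure D1:**
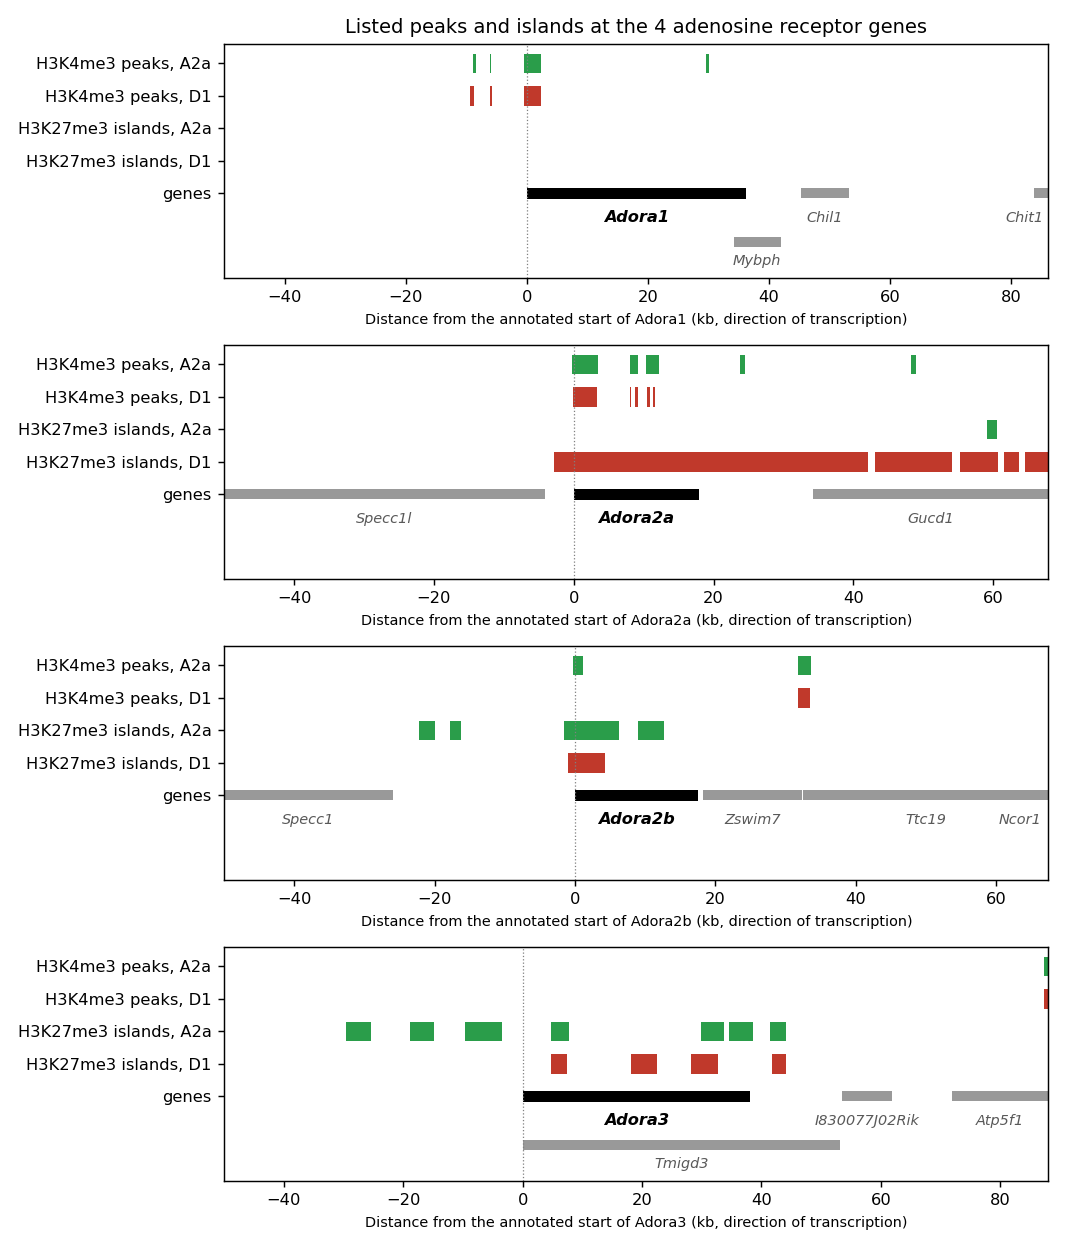
Positions of H3K4me3 peaks and H3K27me3 islands at the 4 receptor genes with 50 kb on either side, in kb from the annotated TSS in the direction of transcription, for the A2a list (green) and the D1 list (red). Black bars are the receptor genes and grey bars the other protein-coding genes. The long D1 islands over *Adora2a* have no counterpart in A2a except 1 island of 1.40 kb near 60 kb, and *Adora1* has no island in either list.

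*Adora1* encodes the A1 receptor, which lowers cAMP and limits transmitter release. It lies on the minus strand at chr1:134199223-134235431 (ENSMUSG00000042429.8, 36.2 kb) and had a promoter H3K4me3 peak and no H3K27me3 in both cell types. This was the pair of states of 47.5% of protein-coding genes. The promoter peak measured 2.73 kb in the A2a list and 2.71 kb in the D1 list, with nearly the same ends, and both covered the TSS. Its summit lay 702 bp downstream of the TSS in A2a and 645 bp in D1, in an exon annotated as UTR.

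The fold enrichment over local background of that peak was 5.14 in A2a and 4.73 in D1. Its −log10 q was 189.7 in A2a, above 92.2% of the A2a peaks or level with them, and 90.5 in D1, at the 73.5th percentile of the D1 peaks. By −log10 q the peak therefore ranked 18.7 percentile points higher in A2a. Over the 12204 protein-coding genes with a promoter peak in both lists, the median of this difference was 3.83 points, and 6.96% of them had one at least as large. By peak length the order turned, at percentiles 96.4 in A2a and 97.1 in D1, and by fold the ranks were 30.8 and 27.4.

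Upstream of *Adora1*, both lists had the same pair of small intergenic peaks. The nearer had its summit at the same base in both lists, at -5.92 kb from the TSS, with a fold of 3.32 in A2a and 4.71 in D1. The farther lay at -8.83 kb in A2a with a fold of 4.49 and at -8.92 kb in D1 with a fold of 3.62. These were weak peaks, between the 2.21st and the 19.9th percentile of their lists by −log10 q. In A2a alone an intronic peak 30.04 kb downstream of the TSS was listed, with a fold of 3.13 and at percentile 0.519, close to the calling threshold.

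No H3K27me3 island lay in *Adora1* or within 50 kb of it in either list, as for 32.1% of protein-coding genes. The nearest island was 149 kb from the promoter window in A2a and 131 kb in D1. The other protein-coding genes within 50 kb of *Adora1* had neither mark at their promoters in either list. These were *Chit1* and *Chil1*, which encode chitinase-family proteins, and *Mybph*, a myosin-binding protein gene whose end overlaps that of *Adora1*.

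*Adora2a* encodes the A2A receptor, which raises cAMP in MSNs of the indirect pathway. It lies on the plus strand at chr10:75316877-75334784 (ENSMUSG00000020178.6, 17.9 kb). In A2a nuclei its promoter carried H3K4me3 without H3K27me3, and in D1 nuclei it carried both. Of all protein-coding genes, 69 (0.314%, Wilson interval 0.248 to 0.398%) had this pair of states. An island at the promoter in D1 alone was found at 1% of protein-coding genes, and in A2a alone at 7.38%. Among the 69 genes *Adora2a* ranked 2nd by the reads of its D1 promoter island and 17th by the −log10 q percentile of its A2a peak.

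The promoter H3K4me3 peak of *Adora2a* was broad and of low fold enrichment in both lists. Its length of 3.70 kb in A2a was at the 99.6th percentile, and its length of 3.38 kb in D1 at the 99.4th. Its fold enrichment was at the 11.8th percentile in A2a and the 13.7th in D1. The summits lay 1296 bp and 1246 bp downstream of the TSS, in an intron. Both peaks covered the TSS, and most of their length lay downstream of it.

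By −log10 q the *Adora2a* peak stood at 181.9 in A2a and 55.5 in D1, and its percentile was 37.2 points higher in A2a. Of the 12204 genes with a promoter peak in both lists, 10 had a difference at least that large, *Adora2a* included (0.0819%). This difference depended on the measure: the A2a minus D1 difference was -1.90 points by fold enrichment and 0.256 points by length. Library depths, which enter a q-value, are not known, and their part in this difference was not tested.

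**Figure D2:**
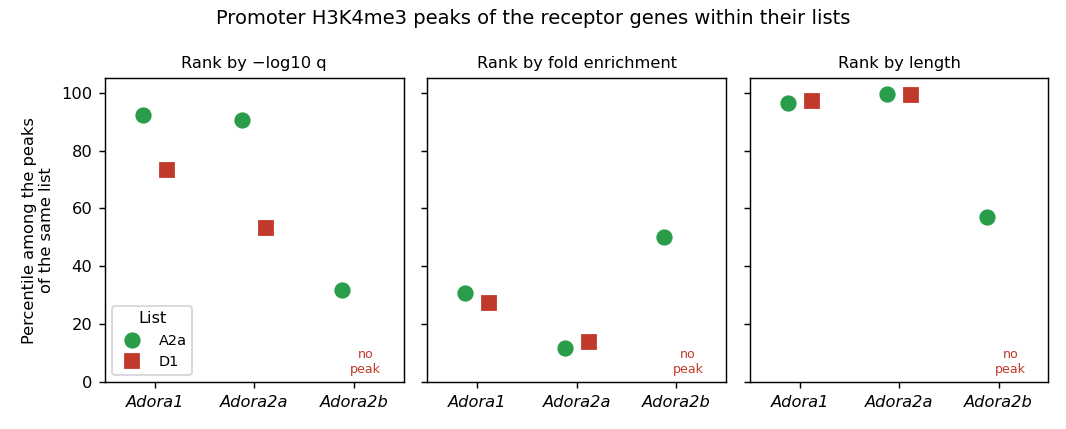
Percentile of the promoter H3K4me3 peak among the peaks of its own list, by −log10 q, by fold enrichment and by length, in A2a (green circles) and D1 (red squares). For *Adora2a* the lists stand apart by −log10 q (90.6 and 53.4) and close together by fold and by length; *Adora2b* has a peak in A2a alone, and *Adora3* has none.

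Inside *Adora2a*, further H3K4me3 peaks lay at an alternative 5′ exon and in the intron after it. The start of transcript Adora2a-202 is 7.98 kb downstream of the first TSS. In A2a, 1 peak of 1217 bp had its summit 116 bp past that start, with a fold of 1.91. In D1 the same stretch held 2 shorter peaks, of 270 and 476 bp, with folds of 2.31 and 1.71, the first with its summit 107 bp past the start. In the next intron, 10.6 kb from the first TSS, A2a had 1 peak of 1886 bp and D1 had 2 peaks of 403 and 400 bp. H3K4me3 peaks thus covered 36.8% of the gene in A2a and 27.02% in D1.

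In A2a alone, 2 peaks lay downstream of the gene. The peak 24.0 kb from the TSS was intergenic, 804 bp long, with a fold of 5.65, and the peak at 48.7 kb lay in an intron of *Gucd1*, 670 bp long, with a fold of 7.42. They were at percentiles 32.2 and 32.8 by −log10 q. Of the A2a peaks between percentiles 30 and 35, 14.1% overlapped no D1 peak. Both positions fell within D1 H3K27me3 islands.

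H3K27me3 separated the cell types at *Adora2a* along the whole gene. The D1 island over the TSS, at chr10:75314001-75359000, began at -2.88 kb from the TSS and ended 42.1 kb downstream of it, and its 4153 reads (Poisson interval 4028 to 4281) gave 92.3 reads per kb, against a median of 37.2 over the D1 islands. It covered 100% of the gene in D1, whereas in A2a no base of the gene lay in an island. All 5 D1 H3K4me3 peaks of *Adora2a* lay at its promoter or in the gene, which this 1 island covers, so they are not separate cases. None of the 5 A2a peaks, 2 of them downstream of the gene, overlapped an A2a island. Over all peaks, 9.11% of D1 peaks overlapped a D1 island and 15.3% of A2a peaks an A2a island.

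The island was unusual among D1 islands without an A2a counterpart. Of 9731 D1 islands that overlapped no A2a island, whose medians were 2.40 kb and 81 reads, it ranked 1st by reads and 1st by length. Among all 45760 D1 islands it ranked 48th by reads and 67th by length. In 11 protein-coding genes the whole gene lay within D1 islands with no base in an A2a island, and *Adora2a* was the only one of them with at least its own length. The reverse held for 81 genes, none of which was as long.

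Downstream of the long island, D1 had 4 more islands that lay in or reached into the 50 kb after the gene. They were 11.0 kb long with 779 reads, 5.40 kb with 417 reads, 2.2 kb with 87 reads and 22.4 kb with 1249 reads. The single A2a island in this span was 1.40 kb long with 93 reads (Poisson interval 75.1 to 113.9) and lay inside the D1 island of 5.40 kb. Over the gene with 50 kb on either side, D1 islands covered 67.0 kb and A2a islands 1.40 kb.

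When D1 islands at most 5 kb apart were joined, 11 of them formed a domain of 141.8 kb with 8927 reads, at chr10:75314001-75455800. The domain began between *Specc1l* and *Adora2a*. *Specc1l*, which encodes a cytoskeletal linker protein, ends 4.13 kb before *Adora2a* and had no H3K27me3 in either list and H3K4me3 at its promoter in both, with percentiles of 64.8 in A2a and 94.1 in D1. On the other side the domain ran into *Gucd1*, transcribed towards *Adora2a*. D1 islands covered 67.8% of *Gucd1* and A2a islands 0.839%, while its promoter, beyond the domain, had H3K4me3 only in both lists.

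Across protein-coding genes, more island length in D1 was the less common direction. Over the gene with 50 kb on either side, A2a islands covered more in 60.4% of genes and D1 islands in 7.05%, with a median D1 minus A2a difference of -2.40 kb. The difference at *Adora2a*, 65.6 kb, ranked 20th of 21951, and within the gene alone, at 17.9 kb, it ranked 52nd. Neighbouring genes share parts of these windows, so the ranks are not of independent regions.

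**Figure D3:**
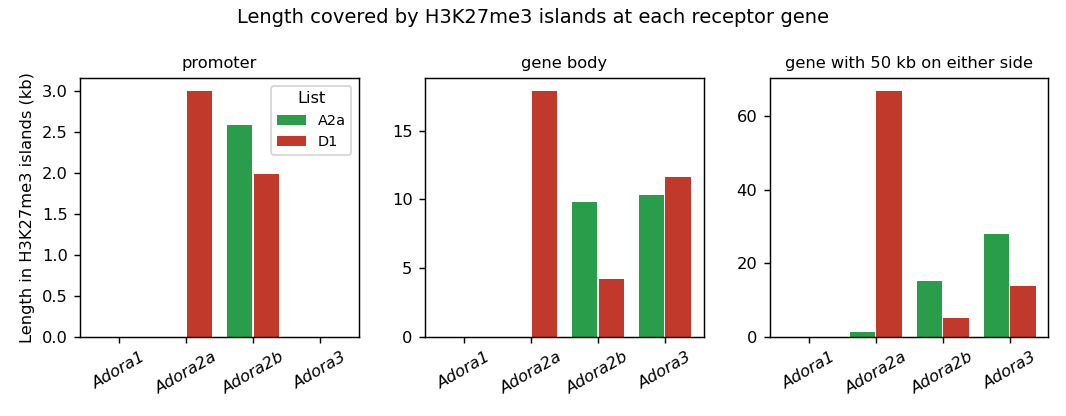
Length within H3K27me3 islands, in kb, at the promoter, in the gene body and in the gene with 50 kb on either side, for A2a (green bars) and D1 (red bars). D1 exceeds A2a at *Adora2a* in all 3 regions, A2a exceeds D1 at *Adora2b* in all 3, and *Adora1* has no bar.

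**Figure D4:**
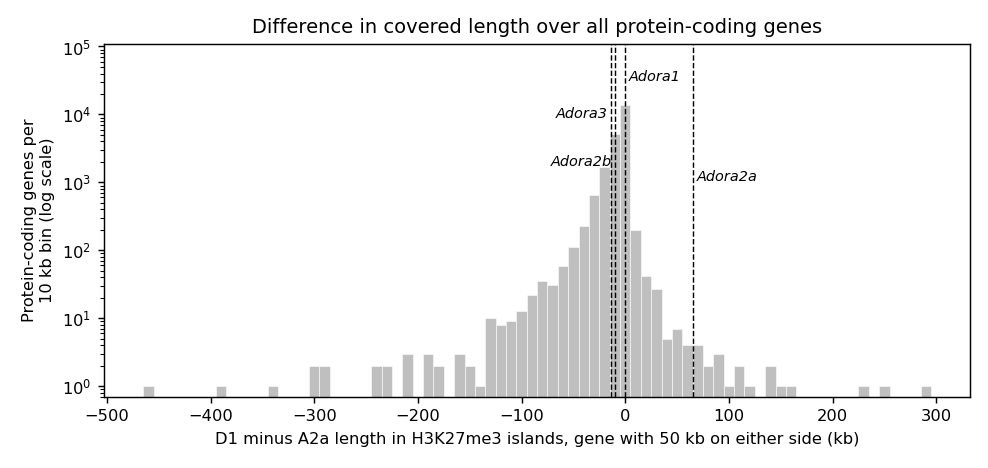
Number of protein-coding genes, on a log scale, by the D1 minus A2a length within H3K27me3 islands over the gene with 50 kb on either side, in bins of 10 kb. Dashed lines mark the receptor genes: *Adora2a* lies at 65.6 kb on the D1 side, *Adora1* at 0, *Adora2b* at -10 kb and *Adora3* at -14 kb.

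The other A2a neuron markers showed the same order with shorter islands. In D1 the promoter islands were 7.80 kb with 559 reads at *Drd2*, a dopamine receptor gene, and 23.8 kb with 1365 reads at *Penk*, which encodes enkephalin. They were 21.8 kb with 1265 reads at *Gpr6*, an orphan receptor gene, and 21.2 kb with 1577 reads at *Sp9*, a transcription factor gene. In A2a, *Gpr6* had no promoter island, like *Adora2a*, and the other 3 had islands of 2.60 to 9.40 kb. These markers were chosen with results of these data known.

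*Adora2b* encodes the A2B receptor, a stimulatory receptor of low affinity for adenosine. It lies on the plus strand at chr11:62248984-62266453 (ENSMUSG00000018500.2, 17.5 kb) and has 1 annotated transcript. Both lists had H3K27me3 over its promoter, and H3K4me3 was listed in A2a alone. This pair of states, both marks in A2a and H3K27me3 only in D1, was shared by 1.45% of protein-coding genes, and 2.59% had a promoter H3K4me3 peak in A2a alone, against 0.164% in D1 alone.

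The A2a H3K4me3 peak of *Adora2b*, at chr11:62248736-62250088, was 1.35 kb long, with a fold of 6.68 and a −log10 q of 19.9, at the 31.8th percentile. Its summit lay 179 bp past the TSS in a coding exon. Among A2a peaks of similar rank, between percentiles 30 and 35, 14.1% overlapped no D1 peak. In D1 the nearest H3K4me3 peak was 30.8 kb from the promoter window. That peak was the promoter peak shared by *Zswim7* and *Ttc19* and was listed in both cell types.

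The H3K27me3 island at *Adora2b* held 908 reads over 7.80 kb in A2a (Poisson interval 849.9 to 969.0) and 372 reads over 5.20 kb in D1 (335 to 412). The D1 island lay wholly inside the A2a one. The islands ranked alike in their lists by reads, at the 93.9th and the 93.2nd percentile. The A2a to D1 ratio of reads was 2.44 as deposited (exact binomial interval 2.16 to 2.76). Divided by all island reads it was 0.871 (0.771 to 0.985), and divided by the reads of islands shared by both lists it was 1.03 (0.915 to 1.17). The direction of the read ratio was thus set by the scaling.

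A2a had 1 further island in the gene, 3.6 kb long with 175 reads, and 2 upstream of it, 2.2 kb with 126 reads and 1.60 kb with 103 reads, none with a D1 counterpart. Islands covered 56.2% of *Adora2b* in A2a and 24.1% in D1. The neighbouring *Specc1*, *Zswim7*, *Ttc19* and *Ncor1*, the last a nuclear receptor corepressor gene, had H3K4me3 only at their promoters in both lists and no H3K27me3 within the gene. The H3K27me3 of *Adora2b* therefore lay between genes listed without it.

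*Adora3* encodes the A3 receptor, an inhibitory receptor. It lies on the plus strand at chr3:105870858-105908926 (ENSMUSG00000000562.5, 38.1 kb) and overlaps *Tmigd3* on the same strand, so the marks of these genes cannot be told apart. No H3K4me3 peak lay in the gene in either list. At the annotated 5′ end neither mark was present in either list, which was the state of 28.9% of protein-coding genes.

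The result at *Adora3* depended on the start used. Transcript Adora3-201, whose start is also the RefSeq one, begins 33.6 kb downstream of the annotated 5′ end. At that start the state was H3K27me3 only in both lists. In A2a, 2 islands overlapped the window over 2201 bp, and 1 of them covered the start itself. In D1, 1 island overlapped the window for 1180 bp without reaching the start.

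Within *Adora3*, A2a had islands with 211, 266 and 223 reads and D1 had islands with 102, 114 and 150 reads. They covered 27.1% of the gene in A2a and 30.5% in D1, so that within the gene D1 covered 1.27 kb more. With 50 kb on either side, 7 A2a islands covered 28.0 kb and 4 D1 islands 14 kb. The islands were of middling rank, from the 50.1st to the 78.0th percentile by reads in A2a and from the 39.8th to the 71.2nd in D1. For the 3 pairs of islands that overlapped 1 to 1, the A2a to D1 read ratio was 1.77 to 2.67 as deposited and 0.632 to 0.952 after division by all island reads. The only H3K4me3 peak within 50 kb of the gene, in both lists, was that of *Atp5f1*, a mitochondrial ATP synthase gene, 52.7 kb from the window at the downstream start, and *I830077J02Rik* had neither mark.

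Markers of other cells were read beside these genes, since glia and vessels also express adenosine receptors. Of 6 microglia markers, 2 had a promoter H3K4me3 peak in A2a (*Tmem119*, *Trem2*) and 0 in D1, and *Cx3cr1*, *Csf1r*, *Aif1* and *C1qa* had none in either list. The counts were 2 and 2 of 5 for astrocyte markers, 3 and 3 of 5 for oligodendrocyte markers and 0 and 0 of 4 for endothelial markers, in A2a and D1. Over all protein-coding genes the shares were 58.2% and 55.8%, so a count of this size does not tell how many of these cells were present. In A2a the peaks at *Tmem119* and *Trem2* were at percentiles 23.1 and 4.81. The part of such cells in the A2a peak at *Adora2b* was not tested.

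Genes with the most similar profile were named by the Euclidean distance over 4 numbers, the percentiles of the promoter peak and of the promoter island in each list, with an unmarked promoter at 0. For *Adora1* the 5 nearest protein-coding genes were *Smurf2*, *Anp32a*, *E130208F15Rik*, *Exoc6b* and *Ctif*, at distances of 0.193 to 0.679 percentile points. For *Adora2b* they were *Kcnk5*, *Pdgfrb*, *Arhgap6*, *Plce1* and *Slc25a21*, at 1.37 to 4.27. For *Adora2a* the nearest was *Ptprm*, a receptor tyrosine phosphatase gene, at 4.85, with percentiles of 89.9 and 56.7 for its peaks in A2a and D1, no A2a island and a D1 island at 96.4. The next, *Wls*, *Cdca7*, the delta opioid receptor gene *Oprd1* and *Cdh4*, were farther away, at 16.1 to 25.9. Each profile rests on 4 pooled lists and is a description.

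Lists of adenosine production, removal and transport, 17 genes together, were read next. A promoter H3K4me3 peak was present at 12 in A2a and 11 in D1, with backgrounds of 58.2% and 55.8% of protein-coding genes. An H3K27me3 island was present at 4 in each, with backgrounds of 21.6% and 15.3%. The state differed at 3, *Nt5e*, *Ada* and *Alpl*, with a background of 10.8%. Their median H3K4me3 percentile, with an unmarked promoter at 0, was 51.9 in A2a and 44.0 in D1, beside 44.5 and 35.7 over all protein-coding genes. *Nt5e*, which encodes CD73, the enzyme that makes adenosine from AMP outside the cell, had the pair of states of *Adora2a*. Its A2a promoter had H3K4me3 at percentile 84.5 and no island. Its D1 promoter had H3K4me3 at percentile 55.3 and an island of 3.0 kb with 106 reads, far shorter than that over *Adora2a*.

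*Ada*, the adenosine deaminase gene, had the pair of states of *Adora2b*. Its A2a peak was at percentile 2.92, close to the calling threshold, and its islands had 644 reads in A2a and 211 in D1. *Alpl*, a phosphatase gene, had an island of 8.40 kb in A2a and neither mark in D1. *Adk*, whose product adenosine kinase clears adenosine inside cells, had no H3K27me3 and a peak at the top of both lists, at percentiles 99.9 and 99.8. *Pnp* had peaks at percentiles 63.3 and 95.6. Of the other genes in the production list, *Ahcy*, *Enpp1* and *Entpd1* had the highest A2a percentiles, 85.5, 81.6 and 76.5. *Enpp1* also had an island in both cell types.

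Of 6 adenosine transporter genes, *Slc29a2* and *Slc29a3* had H3K4me3 in both lists, at percentiles 85.6 and 51.9 in A2a, and the other 4 had neither mark at the promoter.

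Downstream of the receptors, 10 of 11 effector genes had promoter H3K4me3 in both lists, as did 55.6% of protein-coding genes. Their median percentile was 69.0 in A2a and 53.7 in D1, beside 44.5 and 35.7 over all protein-coding genes. *Gnal* encodes the stimulatory G protein subunit through which the A2A receptor signals in the striatum. Its state was the only one of the 11 to differ, with a background of 10.8%: in A2a its promoter had an island of 2.2 kb with 135 reads beside the H3K4me3 peak, and in D1 it had the peak alone, at percentiles of 74.3 in A2a and 54.4 in D1. *Gnas*, an imprinted gene with several promoters, had H3K27me3 only at its annotated 5′ end in both lists. The inhibitory subunit genes *Gnai1* and *Gnai3* had A2a peaks at percentiles 93.5 and 83.0 and D1 peaks at 93.7 and 87.7, and *Gnb1* had 81.6 and 65.8.

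The P2 receptors respond to ATP and other nucleotides rather than to adenosine. Of 14, 8 had a promoter peak in A2a and 5 in D1, where 58.2% and 55.8% of protein-coding genes had one. An island was present at 5 in A2a and 4 in D1, with backgrounds of 21.6% and 15.3%, and the state differed at 4, with a background of 10.8%. Their median H3K4me3 percentile was 6.34 in A2a and 0 in D1, beside 44.5 and 35.7 over all protein-coding genes. *P2rx5* had both marks in A2a and H3K27me3 only in D1, the pair of states of *Adora2b* and *Ada*. *P2rx6* and *P2ry12* had a weak peak in A2a alone, at percentiles 12.4 and 13.2, and *P2ry6* had an island of 5.80 kb with 321 reads in A2a alone. *P2ry12* is itself known as a microglial gene. The peaks with the highest A2a percentiles were at *P2rx3*, *P2rx4* and *P2ry1*, at 73.1, 65.9 and 58.2. The gene lists were written with earlier results of these data known, and their counts are a description.

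**Figure D5:**
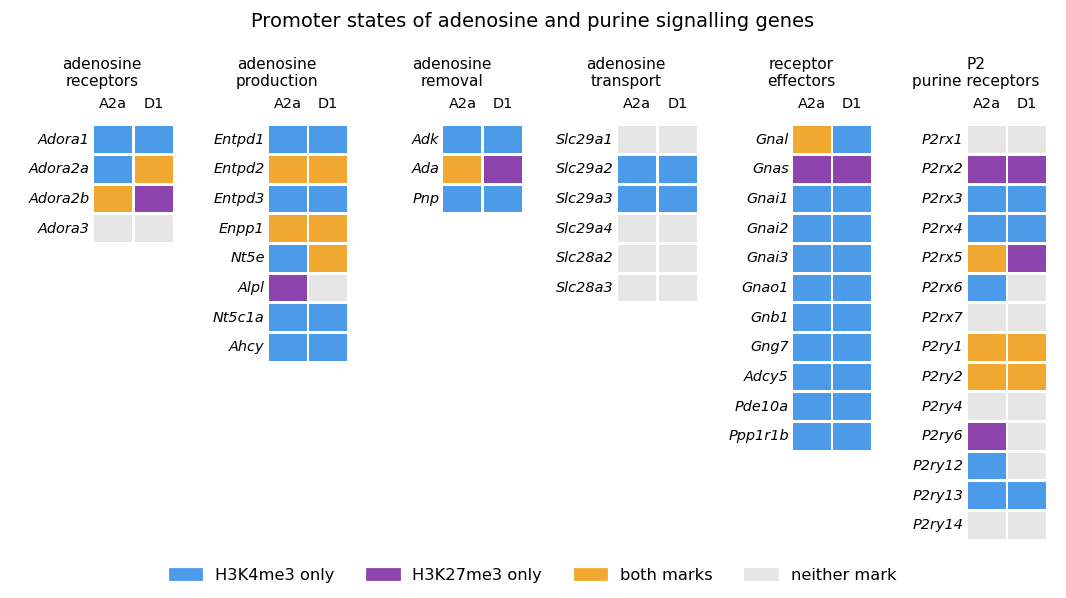
Promoter state of the 4 receptor genes and of 42 other genes of adenosine and purine signalling, in A2a (left column of each block) and D1 (right column). Blue is H3K4me3 only, purple H3K27me3 only, orange both marks and grey neither; rows with 2 colours are genes whose state differs, as at *Adora2a*, *Adora2b*, *Nt5e* and *Gnal*.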

How the data were processed

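CnR of A2a and D1 nuclei was read from 4 deposited lists, each pooling 2 replicates. Alignment by the authors used Bowtie2 (version 2.1.0) and mm10. They kept mapping quality of at least 20 and inserts of 150 to 500 bp, and removed duplicates. For H3K4me3 the authors ran MACS2 (q-value 0.01), and the deposited columns are the fold enrichment over local background, a ratio within the pooled library, the −log10 q-value and the summit position. For H3K27me3 the authors ran SICER (window 200 bp, gap 600 bp, false discovery rate 0.01) against a control library that the methods do not name. The deposited island value is a raw count of reads. Genes were those of GENCODE vM21 on GRCm38. Promoter windows needed an overlap of 1 bp. Percentiles are ranks within a list. Intervals (95%) are exact Poisson, exact conditional binomial or Wilson. The scripts used Python 3.11.15, numpy 2.4.6, pandas 2.3.3 and scipy 1.17.1, and overlap counting was tested on simulated data. Named genes are the 4 receptors, protein-coding genes within 50 kb, list genes whose state differed plus up to 3 per list by A2a peak percentile, the 5 genes of most similar profile, and markers. *Gnas* falls outside this rule and was named after its values were seen. The members and lists were chosen with earlier results of these data known. The other 20 samples were not analysed here. 1 further microglia marker was left out and is not reported here.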

Additional observations from a re-analysis of the deposited data

How the results depend on the processing

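Each of 37 values was recomputed under its alternatives, 123 in all, of which 78 stayed equal or within the counting interval or the margin allowed for counts. The filter on island length cannot change an H3K4me3 count, and the filter on peak q-value cannot change an H3K27me3 count. Those alternatives stayed equal by construction and are among the 78. H3K4me3 counts of the receptor genes kept their value under every alternative that could change them. With a window of 5 kb on either side, or the start of any transcript, *Adora3* gained H3K27me3 in both lists, for counts of 2 in A2a and 3 in D1. The D1 minus A2a covered length at *Adora2a* was 40.8 kb with 20 kb flanks, 111.6 kb with 100 kb flanks, 67.0 kb for islands of at least 2000 bp and 69.4 kb with islands within 5 kb joined. It was -7.82, -8.40 and -15.0 kb at *Adora2b* with 20 kb flanks, long islands only and joined islands, and -9.80, -16.8 and -17.6 kb at *Adora3* with 20 kb flanks, 100 kb flanks and joined islands. *Adora1* reached 2.60 kb with 100 kb flanks. Counting whole islands, D1 had 6592 more reads at *Adora2a*, against 5532.

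The A2a minus D1 peak percentile by fold, by length and among promoter peaks was 3.38, -0.697 and 28.3 points at *Adora1*, -1.90, 0.256 and 54.2 at *Adora2a*, and 50.3, 57.1 and 9.08 at *Adora2b*, which has no D1 peak. The D1 minus A2a island percentile by length, by reads per kb and among promoter islands was 99.9, 99.7 and 98.9 at *Adora2a*, which has no A2a island, and -4.95, 0.231 and -4.05 at *Adora2b*, against -0.667 by reads. Read ratios above 1 as deposited fell to 0.871 at *Adora2b* and to 0.738, 0.632 and 0.952 at the *Adora3* pairs when divided by all island reads, and to 1.03, 0.876, 0.751 and 1.13 when divided by shared island reads. These turns come from the scaling itself. For the other changes the cause was not tested.

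The share of genes in each pair of states, over all annotated genes, was 24.2% for *Adora1*, 0.18% for *Adora2a*, 0.81% for *Adora2b* and 54.1% for *Adora3*, and with a window of 1 kb on either side 0.232% for *Adora2a* and 29.9% for *Adora3*. With the start of any transcript, H3K27me3 was present at 7 of the 17 adenosine handling genes in A2a and at 2 effector genes in D1.

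No paired analysis was possible because the lists pool their replicates, and leaving out a replicate was not possible for the same reason. A missing peak or island means that none passed the caller's threshold at an unknown depth, not that the mark was absent.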
